A study of Mus musculus with 6 samples.

Results

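Expression was measured for 9 genes of glycosphingolipid synthesis, out of 19938 genes on the array, in cultured mouse bone marrow stromal cells. The members were chosen from earlier results of these same arrays, where A4galt was selected on its large difference between the genotypes, and the other 8 genes were added as the enzymes that lead to its substrate, extend its product or compete with it. Each member was read by its only probe set with exactly 1 gene symbol, and all 9 were measured. Because this contrast chose the members, their differences, errors, intervals and place relative to the threshold are given as a description and are no test.

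The cells were marrow stromal cells of C57BL/6 mice aged 6 months, either wild type (WT) or carrying a knockout tied to miR-188 by the labels and the series title (KO), with 3 arrays for each genotype. All cultures, WT and KO alike, were in an adipocyte-inducing medium that held fetal calf serum (10%), the phosphodiesterase inhibitor 3-isobutyl-1-methylxanthine (0.5 mM), insulin (5 µg/ml) and the glucocorticoid dexamethasone (1 µM). The knockout was not described as restricted to a cell type. The sample titles call the arrays of each genotype biological replicates. They do not say whether each culture came from its own mouse, so how far the spread between arrays reflects different animals is not known. The series asks how miR-188 bears on whether stromal cells become osteoblasts or adipocytes, and only the adipogenic side was measured here.

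Glycosphingolipids are membrane lipids made of a ceramide anchor and a sugar chain that is built one residue at a time, mostly in the Golgi apparatus. Glucosylceramide synthase (Ugcg) adds the first sugar and the lactosylceramide synthases (B4galt5, B4galt6) the next. Lactosylceramide is the branch point: A4galt adds an alpha-linked galactose and opens the globo series by making globotriaosylceramide (Gb3), the receptor of Shiga toxin, while St3gal5 adds sialic acid and opens the ganglio series by making the ganglioside GM3. B3galnt1 extends Gb3 to globoside and Gbgt1 extends globoside to the Forssman antigen. B4galnt1 and St8sia1 extend GM3 towards the larger gangliosides. The arrays measure transcripts of these enzymes and not the lipids.

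The start-site sequences of the genes at and just before the branch are shown as the regions where transcription begins in A4galt, the most changed member, in B4galt5, the next, and in St3gal5, which competes with A4galt. They are RefSeq sequences of build GRCm38.p6, each 300 bases long from 250 bases before to 50 bases after the annotated start, written in the direction of the gene. Capitals mark matches on either strand to the AP-1 motif TGANTCA, the GC box GGGCGG, the E-box CACGTG or the CCAAT box CCAAT. The A4galt window is chr15:83251680-83251979 on the minus strand, that of B4galt5 is chr2:167349129-167349428 on the minus strand and that of St3gal5 is chr6:72097358-72097657 on the plus strand.
A4galt promoter: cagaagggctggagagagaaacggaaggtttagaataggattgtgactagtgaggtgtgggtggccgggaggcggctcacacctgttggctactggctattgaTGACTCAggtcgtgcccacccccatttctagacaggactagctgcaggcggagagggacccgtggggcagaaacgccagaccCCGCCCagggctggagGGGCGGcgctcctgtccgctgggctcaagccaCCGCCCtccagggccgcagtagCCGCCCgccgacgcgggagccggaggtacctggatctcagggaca
B4galt5 promoter: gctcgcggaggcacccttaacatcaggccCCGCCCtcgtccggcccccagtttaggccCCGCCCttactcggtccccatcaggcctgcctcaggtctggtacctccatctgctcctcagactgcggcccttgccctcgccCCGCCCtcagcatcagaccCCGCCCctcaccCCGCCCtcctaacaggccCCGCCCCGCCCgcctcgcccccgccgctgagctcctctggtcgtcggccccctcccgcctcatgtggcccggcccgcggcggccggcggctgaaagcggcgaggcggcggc
St3gal5 promoter: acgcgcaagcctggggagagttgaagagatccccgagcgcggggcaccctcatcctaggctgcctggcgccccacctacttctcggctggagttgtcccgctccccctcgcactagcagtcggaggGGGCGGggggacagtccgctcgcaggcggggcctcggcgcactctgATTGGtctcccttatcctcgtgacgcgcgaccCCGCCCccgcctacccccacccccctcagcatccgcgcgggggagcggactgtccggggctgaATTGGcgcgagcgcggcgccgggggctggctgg

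Of the 9 members, 7 had an entry in the RefSeq start-site table, and the 4 motifs were chosen after these sequences had been seen. The AP-1 motif, bound by FOS and JUN family dimers, was found in 1 of the 7 windows, that of A4galt, as TGACTCA at bases 104 to 110 of the window. It is present in 7.81% of all 32851 windows of that length. All 7 windows held a GC box, against 35.7% of all windows. The G and C content of the 7 was 53.7% (Gbgt1) to 81.3% (Ugcg). The share over all windows was not matched to this content, so no excess of GC boxes follows. A4galt had 4 GC boxes and B4galt5 had 7, of which the last 2 share 1 base, and St3gal5 had 2. CCAAT was found in 2 of the 7 windows, St3gal5 and St8sia1, against 37.4% of all windows, and the E-box in none of the 7, against 7.15%. These are matches of letters only, and no binding was measured.

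The microRNA whose gene the KO label names is given by both mature arms from the same source, with the seed (bases 2 to 8) in capitals. They lie at chrX:7248031-7248051 and chrX:7247992-7248012 on the minus strand. Transcript sequences of the members were not used here, so no seed match was searched.
mmu-miR-188-5p: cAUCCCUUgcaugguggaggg
mmu-miR-188-3p: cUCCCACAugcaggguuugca

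Values below are log2 expression levels, on which a step of 1 is a doubling. A level above 6.83 was taken as above background, a line set at the 95th percentile of 1027 olfactory receptor genes, and 8 of the 9 members exceeded it. Passing this line does not by itself show expression. It was also passed by 3 of 5 measured B cell markers and 2 of 4 measured erythroid markers. Among these, Blnk (7.26) and Slc4a1 (7.73) had higher means than the members B4galt6 (7.16) and Gbgt1 (6.87), whose expression is therefore uncertain. The Mir188 probe set read 7.22, 7.27 and 7.38 in WT and 7.22, 7.22 and 7.13 in KO, a difference of -0.10 (limma adjusted p = 0.348). Whether it lies within the deleted part is not stated, so it does not check the genotype labels, on which every direction here rests. The labelled cell type was checked next. Of 10 marrow stroma markers 9 lay above background, with Lepr (5.30) below it. Thy1 (7.27) and Eng (7.18) passed the line but lay below Slc4a1, so their expression is uncertain too. The summed log2 level of the 10 markers was 92.17 to 92.52 in the WT arrays and 92.26 to 92.42 in the KO arrays. The growth factor receptor genes Pdgfra and Pdgfrb rose by 0.26 and 0.14 (limma adjusted p = 0.0171 and 0.0481), while the ectonucleotidase gene Nt5e and the matrix gene Postn fell by 0.28 and 0.20 (limma adjusted p = 0.0152 and 0.0433). Of 10 macrophage markers 2 lay above background, with summed levels of 65.32 to 66.31 in WT and 65.76 to 66.21 in KO. Their defining genes Adgre1, Csf1r, Lyz2 and Ptprc were below background, and the lysosomal glycoprotein gene Cd68 fell by 0.19 (limma adjusted p = 0.0153). Of 8 endothelial markers 4 lay above background, with summed levels of 52.92 to 53.58 in WT and 52.76 to 53.21 in KO. Pecam1 was below background, and the receptor gene Kdr fell by 0.29 (limma adjusted p = 0.0425). Of 9 measured adipocyte markers 7 lay above background, with Adipoq and Lep below it. Their summed log2 level was 68.82 to 69.33 in the WT arrays and 66.71 to 67.05 in the KO arrays. The adipocyte regulator Pparg (-1.27) and the fat-cell genes Lpl (-0.42) and Fabp4 (-0.33) were the 3 calls in that list, all lower in KO. The lower sum came mainly from these genes. The uncalled markers of the list differed by -0.06 (Adipoq) to 0.02 (Retn). Their mean levels, 5.25 (Adipoq) to 7.54 (Plin1), were all below that of Slc4a1, so their expression is uncertain. They therefore cannot show whether the list fell as a whole. The part of these marker changes in the differences below was not tested. The markers do not settle whether the cultures held several cell types. If they did, fewer cells of a type and less RNA per cell could not be told apart.

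Of the 9 members, 1 lay past the limma threshold (Benjamini-Hochberg adjusted p under 0.05 over all genes), namely A4galt, which had been picked for its large difference, so that nothing follows from the count. Of all 19938 genes 7.31% passed, 3.34% higher and 3.97% lower in KO. The median difference, KO minus WT, was 0.02 over the members and 0.0046 over all genes, and the median size of the difference was 0.06 in both. Apart from A4galt and B4galt5, no member differed by more than 0.08.

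The first enzyme, Ugcg, was read at 10.73, 10.60 and 10.73 in the WT arrays and at 10.59, 10.66 and 10.58 in the KO arrays. The groups overlapped, because WT replicate 2 fell within the range of the KO arrays. The difference was -0.07 (SE 0.05, 95% interval -0.19 to 0.04).

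B4galt5, the main lactosylceramide synthase of most tissues, was read at 9.93, 9.95 and 9.91 in WT and at 10.10, 10.04 and 10.06 in KO. Every KO array was above every WT array, with a gap of 0.09. The difference was 0.13 (SE 0.03, 95% interval 0.06 to 0.21), or 1.10-fold, short of the threshold over all genes. Groups that did not overlap were found for 2 of the 9 members, A4galt and B4galt5, and for 24.9% of all genes.

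B4galt6, the second lactosylceramide synthase, known best from brain, was read at 7.19, 7.13 and 7.19 in WT and at 7.19, 7.14 and 7.09 in KO. These levels lie 0.33 above background on average and overlap, with a difference of -0.03 (SE 0.04, 95% interval -0.13 to 0.06). Of this paralogous pair, B4galt5 was separated between genotypes, though short of the threshold, and B4galt6 was not. B4galt6 lies nearer the background line, and the contrast between the pair was not tested.

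A4galt, which makes Gb3 from lactosylceramide, was read at 10.15, 10.08 and 10.12 in WT and at 10.81, 10.77 and 10.72 in KO. All 3 KO arrays lay above all 3 WT arrays, and the gap between the groups, 0.57, exceeded the range within either group. The group means were 10.12 ± 0.04 for WT and 10.77 ± 0.04 for KO (SD, n = 3 arrays each). The difference was 0.65 (SE 0.04, 95% interval 0.56 to 0.74), a level 1.57-fold as high in KO, and it was the 10th largest rise of all genes. Next to it in size among the members was B4galt5, at 0.13.

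**Figure D1:**
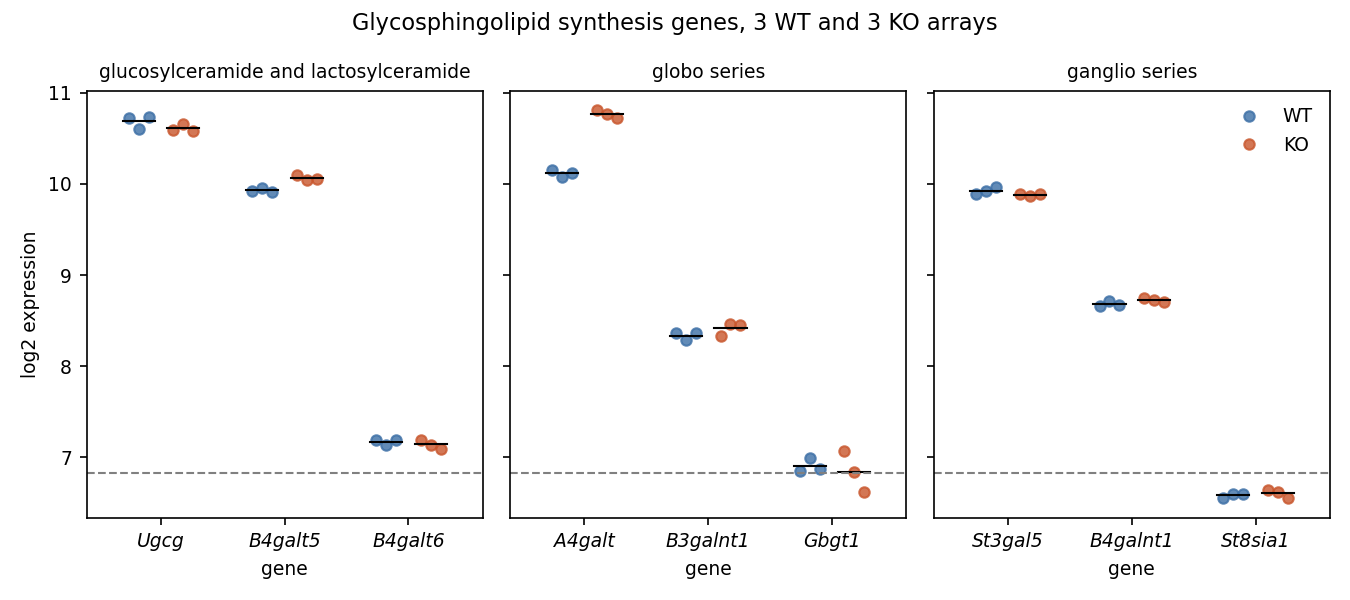
Log2 expression of the 9 members (vertical axis) by gene and branch, with 1 point per array, WT in blue and KO in orange, black bars for the group means and a dashed line at the background of 6.83. A4galt is separated by 0.57 between its highest WT and lowest KO array, whereas St8sia1 lies under the background line.

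B3galnt1, the globoside synthase that uses Gb3, was read at 8.36, 8.28 and 8.36 in WT and at 8.33, 8.47 and 8.45 in KO. KO replicate 1 fell among the WT arrays while the other 2 lay above them. The difference was 0.08 (SE 0.05, 95% interval -0.03 to 0.20).

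Gbgt1, the Forssman synthase, was read at 6.85, 6.996 and 6.87 in WT and at 7.06, 6.83 and 6.62 in KO. Its KO arrays spread on both sides of the WT arrays and of the background line. The difference was -0.06 (SE 0.11, 95% interval -0.32 to 0.20), the widest error among the members, and without KO replicate 3 it was 0.046 in the opposite direction. In the globo branch A4galt, picked for its difference, was separated between genotypes, and the 2 enzymes after it were not. No branch pattern follows from this, because that choice fixed the separation of A4galt and Gbgt1 lay only 0.04 above background on average.

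St3gal5, the GM3 synthase that competes with A4galt for lactosylceramide, was read at 9.89, 9.92 and 9.96 in WT and at 9.89, 9.86 and 9.89 in KO. The groups touched, since WT replicate 1 and KO replicates 1 and 3 had the same value. The difference was -0.04 (SE 0.03, 95% interval -0.13 to 0.04). Both genes at the branch point lay well above background in both genotypes.

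Measured within each array against St3gal5, with the WT mean set to 0, the change of A4galt was 0.07, -0.04 and -0.03 in the WT arrays and 0.73, 0.71 and 0.64 in the KO arrays. These ratios contain the difference for which A4galt was picked and describe it from another side. Against B4galt5, which supplies the substrate, the KO arrays gave 0.53, 0.54 and 0.48. Against B3galnt1, which uses the product, they gave 0.70, 0.52 and 0.49. The KO arrays lay above every WT array in each of these ratios.

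B4galnt1, which makes GM2 and related gangliosides, was read at 8.66, 8.71 and 8.67 in WT and at 8.75, 8.72 and 8.70 in KO. The groups overlapped by 1 array on each side, and the difference was 0.04 (SE 0.03, 95% interval -0.04 to 0.12). St8sia1, which makes GD3, was below background at 6.55, 6.60 and 6.60 in WT and 6.64, 6.62 and 6.55 in KO, with a difference of 0.02 (SE 0.04, 95% interval -0.07 to 0.11). None of the 3 ganglio members separated the genotypes.

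**Figure D2:**
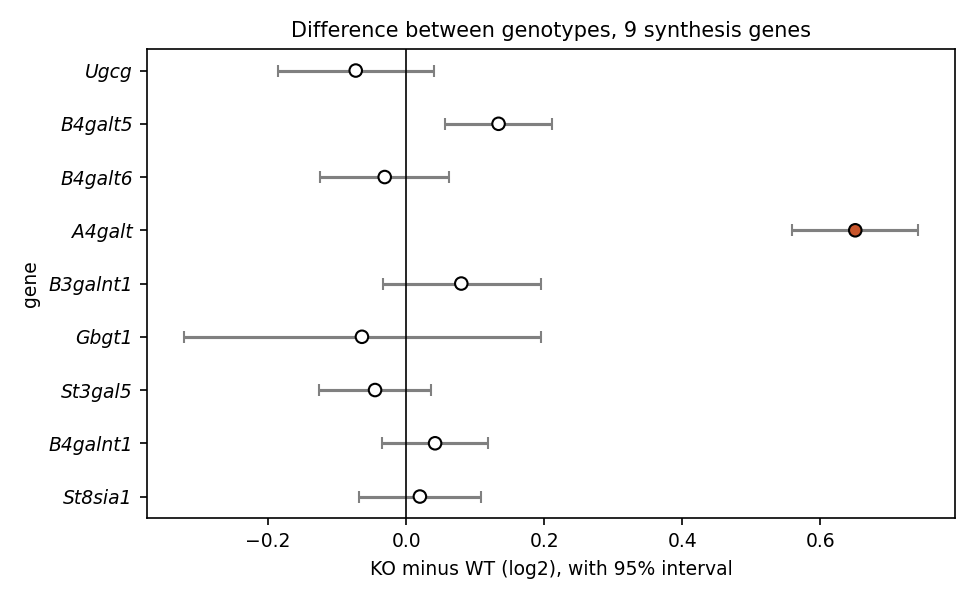
Difference between genotypes (horizontal axis, KO minus WT, log2) for each of the 9 members, as points with 95% intervals from the limma fit, filled where the gene passed the threshold over all genes. Only A4galt, at 0.65, is filled, B4galt5 at 0.13 has an interval above 0, and the other 7 intervals include 0.

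The genes around these enzymes were taken from 7 lists of ceramide supply, other sugar chains, transport, breakdown and sugar nucleotides. Of these, 81 were measured: 2 rose and 5 fell (limma, adjusted p under 0.05) while 74 passed in neither direction, so 8.64% were called, close to the 7.31% of all genes. In the main these genes stayed near 0, with a median difference of -0.02. Groups that did not overlap were found for 31 of the 81, 23 of them lower in KO, against 24.9% of all genes. The breakdown list held more of these than any other list, with 10 of its 15 genes, 9 of them lower. Whether the lists depart from all genes in this measure was not tested. The 7 called genes belonged to 6 of the 7 lists.

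The largest fall was that of Neu1, the lysosomal sialidase that removes sialic acid from glycoproteins and gangliosides. It was read at 10.20, 10.21 and 10.23 in WT and at 9.86, 9.79 and 9.87 in KO, so that all KO arrays lay below all WT arrays. The change was -0.37 (SE 0.03, limma adjusted p = 0.00378), and the gene passed in all 6 fits without 1 array. Smpd1, the acid sphingomyelinase that releases ceramide in the lysosome, fell by 0.16 (SE 0.03, limma adjusted p = 0.0421). That call was lost in each of the 6 fits without 1 array and under both other scalings, where the change was -0.10 and -0.12. Neu1 and Smpd1 were the 2 calls among 15 measured breakdown genes, whose median difference was -0.06, and -0.037 and -0.021 after quantile normalization and cyclic loess. Gla, the lysosomal galactosidase that removes the sugar that A4galt adds, was named for this role after its value was seen, and differed by -0.13 (limma adjusted p = 0.0798).

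On the side of ceramide, Cers5, a ceramide synthase that favours palmitoyl chains, was read at 11.16, 11.07 and 11.15 in WT and at 10.87, 10.86 and 10.92 in KO. It fell by 0.24 (SE 0.04, limma adjusted p = 0.0143), and it was the only call among 16 measured ceramide synthesis genes. It did not pass once WT replicate 1 or 3, or KO replicate 1 or 2, was removed (limma adjusted p = 0.0504 to 0.0851). The other ceramide synthases, the serine palmitoyltransferase subunits and the desaturase Degs1 did not pass.

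Cerk, the kinase that turns ceramide into ceramide 1-phosphate, was read at 9.27 in each WT array and at 9.53, 9.72 and 9.75 in KO. The 3 equal WT values are a tie of the summary method and not a sign of precision. Cerk rose by 0.40 (SE 0.06, limma adjusted p = 0.0141), the largest rise in the lists and the only call among 10 other genes that use or degrade ceramide. Removing WT replicate 1 or 3, or KO replicate 2 or 3, ended the call (limma adjusted p = 0.0565 to 0.0820).

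B3galt1, a galactosyltransferase placed in the list of the lacto and neolacto chains, rose from a WT mean of 7.04 ± 0.02 to a KO mean of 7.40 ± 0.15 (SD, n = 3 arrays each). Its mean over all arrays, 7.22, lay 0.39 above background and below those of Blnk and Slc4a1, so its expression is uncertain. The change of 0.36 (limma adjusted p = 0.0370) passed in 1 of the 6 fits without 1 array, the one without KO replicate 2 (limma adjusted p = 0.0199, otherwise 0.0927 to 0.136). It was the 1 call among 14 measured genes of that list, whose lactotriaosylceramide synthase B3gnt5 lay below background. None of the 9 genes of the later ganglioside steps passed in limma, and 0 had an unadjusted p under 0.05.

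Gltp, a cytosolic transfer protein for glycolipids, fell by 0.21 (SE 0.04, limma adjusted p = 0.0397) and was the 1 call among 9 genes of transport and Golgi function. It passed in 1 of the 6 fits without 1 array, the one without KO replicate 1, and under neither other scaling (limma adjusted p = 0.0654 and 0.0631). Tm9sf2, a Golgi membrane protein needed for Gb3 synthesis in other cells, was named after its value was seen: it differed by -0.26 (SE 0.06, limma adjusted p = 0.0507) and narrowly missed the threshold. Laptm4a, which has the same reported role, differed by -0.04 (limma adjusted p = 0.584).

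Among 8 measured genes of sugar nucleotide supply, Nans, the sialic acid synthase that feeds the ganglioside branch, fell by 0.22 (SE 0.03, limma adjusted p = 0.0145). That call ended on removal of WT replicate 1 or 3 or of KO replicate 3 (limma adjusted p = 0.0581 to 0.0754). Slc35a2, which carries UDP-galactose into the Golgi and so supplies the sugar that A4galt transfers, was also named after its value was seen and differed by -0.15 (limma adjusted p = 0.0522). Gla, Tm9sf2 and Slc35a2, named in this way, were all lower in KO, but other genes just short of the threshold were higher. These were St3gal3 of the lacto and neolacto list, by 0.18 (limma adjusted p = 0.0888), and Gba2 of the breakdown list, by 0.13 (limma adjusted p = 0.0872). No direction follows from the genes near the threshold.

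**Figure D3:**
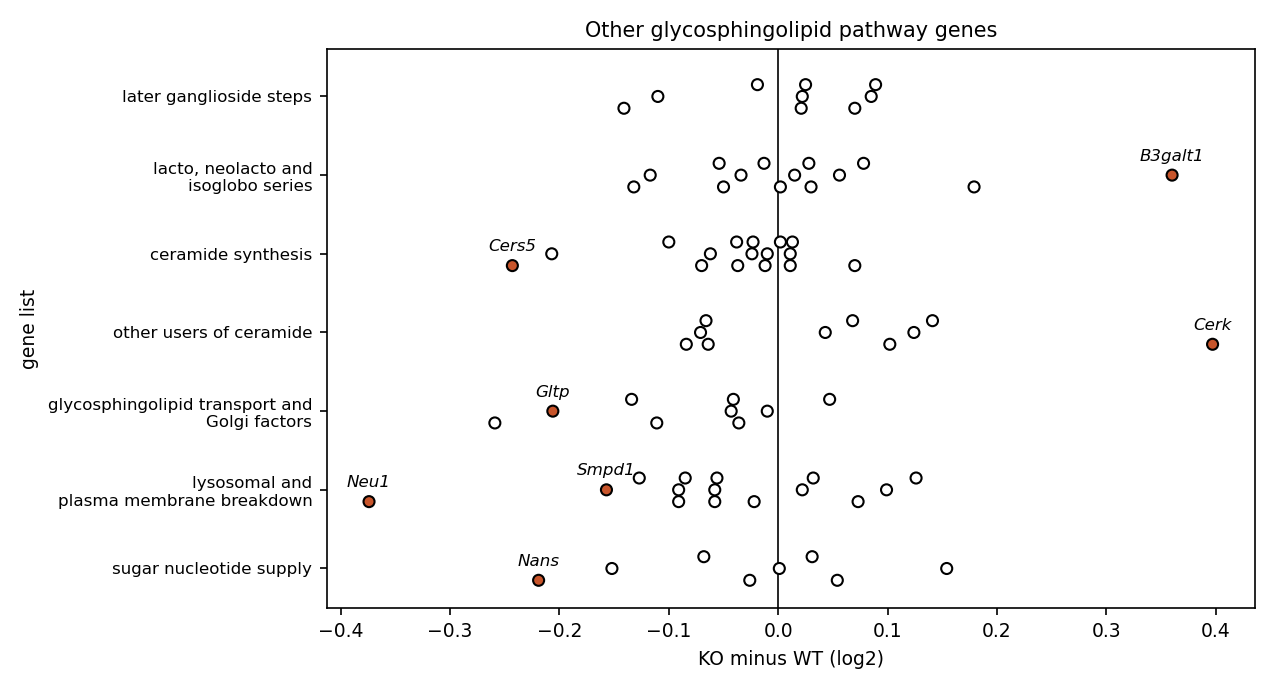
Difference between genotypes (horizontal axis, KO minus WT, log2) of 81 further pathway genes in 7 lists (vertical axis), with 1 point per gene, filled and named where it passed the threshold over all genes. Neu1 at -0.37 and Cerk at 0.40 lie farthest from 0.

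The chromosomal surroundings of A4galt were read from the order of genes on chromosome 15. The 3 nearest measured protein-coding genes on each side were Serhl, Poldip3 and Cyb5r3, and Arfgap3, Pacsin2 and Ttll1. None of the 6 passed in limma, and 2 had an unadjusted p under 0.05, as did 20.7% of all genes. These were Arfgap3, which differed by 0.10 (limma adjusted p = 0.114), and Ttll1, which differed by 0.12 (limma adjusted p = 0.0981). In these and in Poldip3, by a gap of 0.002, all KO arrays lay above all WT arrays, against groups that did not overlap in 24.9% of all genes.

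The genes whose values across the 6 arrays lay nearest to those of A4galt, after each gene was centred on its mean, were Ier3, Egln1, Hmox1, Pik3r5 and Abca1. Their root mean square differences from A4galt were 0.016, 0.034, 0.043, 0.046 and 0.046 on the log2 scale, over 6 arrays. Ier3, an immediate early gene, was read at 8.29, 8.24 and 8.25 in WT and at 8.94, 8.89 and 8.88 in KO, so that its steps between arrays were almost those of A4galt. Egln1 encodes an oxygen-sensing prolyl hydroxylase, Hmox1 haem oxygenase, Pik3r5 a regulatory subunit of phosphoinositide 3-kinase and Abca1 a cholesterol exporter. All of them were higher in KO by 0.57 to 0.71, which the measure of likeness requires.

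**Figure D4:**
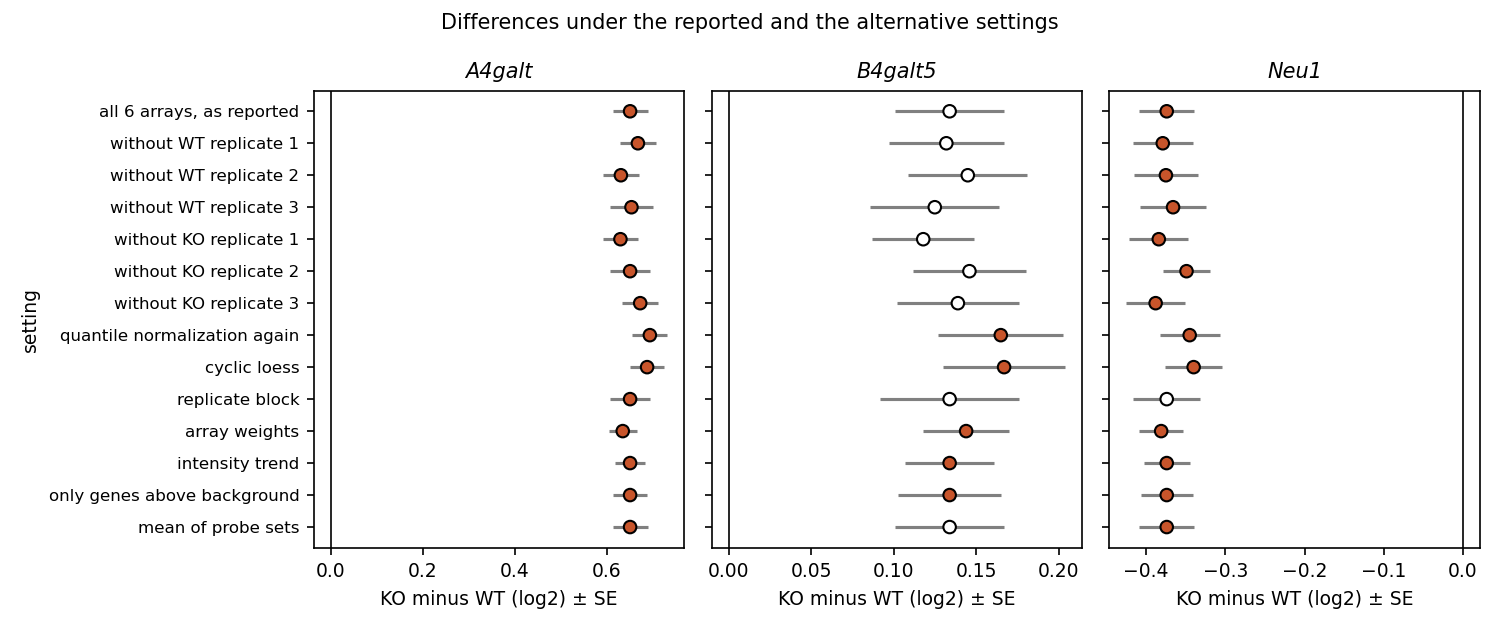
Difference between genotypes (horizontal axis, KO minus WT, log2, ± SE) of A4galt, B4galt5 and Neu1 under the reported fit and 13 alternative settings (vertical axis), with points filled where the adjusted p was under 0.05. A4galt, picked for its difference, lay between 0.63 and 0.69, B4galt5 between 0.12 and 0.17, and Neu1 was open only with the replicate block.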

How the data were processed

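Gene expression was measured on single-colour Affymetrix gene arrays from 6 µg of total RNA per sample, 3 WT and 3 KO, per the labels' protocols. The deposited table holds log2 values made with RMA, per the submitters' processing notes, where Partek and Affymetrix Expression Console are listed too. RMA puts arrays on a common scale, so a change shared by all genes is lost, and its median polish can give several arrays equal values. Array medians lay between 7.19 and 7.23. The number of arrays sets the precision, and hybridisation batches were not given.

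Of 35556 probe sets, 21789 have 1 gene symbol in the platform annotation, 1621 several and 12146 none; 21698 of the former matched the GRCm38.p6 gene table by identifier. Each gene was read by its 1-symbol probe set with the highest mean, which gave 19938 genes. The genotypes were compared by limma 3.58.1 (lmFit and eBayes, R 4.3.3), two-sided, without covariates, with Benjamini-Hochberg adjustment over all 19938 genes; intervals are 95% intervals from the moderated fit. The fit was tested on simulated data. The members and lists were chosen with earlier results of these data known. Named are all members, every called gene of the lists, the neighbours of A4galt and the 5 nearest genes in profile above background; exceptions are marked. Alternatives were leaving out each array, quantile normalization, cyclic loess, a replicate block, array weights, an intensity trend, a filter on dim genes and the mean of probe sets.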

Additional observations from a re-analysis of the deposited data

How the results depend on the processing

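Over the 13 alternatives the difference of A4galt was 0.63 to 0.69 and that of B4galt5 0.12 to 0.17, again as a description. After quantile normalization, cyclic loess, array weights, an intensity trend and the filter on dim genes, 2 members, A4galt and B4galt5, lay past the threshold in place of 1. Gbgt1 ranged from -0.176 to 0.046 over the fits without 1 array, and St8sia1 to -0.007 with array weights. Without 1 array each, 189 to 932 of all 19938 genes were called, against 1457 with every array. Of the 81 other pathway genes 1 to 5 were called, of which 1 to 4 were among the 7 called with every array; 0 of the 6 neighbours of A4galt and 1 member were called. All genes called numbered 3418 with array weights, 2196 with an intensity trend and 2192 with the filter on dim genes. The other pathway genes called then numbered 17, 12 and 12, and the neighbours 2, 2 and 1 (Ttll1, with Arfgap3 in the first pair). Ttll1 was the 1 neighbour called after quantile normalization and after cyclic loess. The split of calls was 666 higher and 791 lower, against 862 and 639 after quantile normalization and 859 and 667 after cyclic loess. These scalings moved the median of the ceramide synthesis list from -0.02 to 0.01 and 0.00, and that of the transport and Golgi list from -0.04 to -0.016 and -0.002. WT replicate 3 has a weight of 7.41 under array weights, where the other arrays have 0.524 to 1.19. The cause of these changes was not tested.

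With the replicate number as a block, 52 genes, 1 member (A4galt, 0.65) and 0 of the other pathway genes were called, and Neu1 had an adjusted p of 0.0510 (limma). Deviations of same-numbered WT and KO arrays correlated at -0.30, -0.26 and -0.02, and no sample correlated best with its own number, so the numbers were not taken as a pairing.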
